A study of Homo sapiens with 12 samples.

Results

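Protein-protected RNA was mapped with a single-strand-specific ribonuclease (ssRNase, RNase ONE) in HEK293T, an established cell line from human embryonic kidney. The sites described are all those listed by the authors in 3 replicate lists, each of which sets an ssRNase footprint library against the ssRNase digestion control of the same replicate number. The 3 lists held 439482 of the 513381 sites in the 6 replicate lists of the series. The other 73899 sites came from a nuclease that cuts paired RNA (dsRNase, RNase V1) and were used only for comparison.

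All 12 libraries, controls included, came from cells cross-linked with 1% formaldehyde for 10 minutes. For all of them, 125 mM glycine, 1% SDS and reversal of cross-links for 2 hours at 65 °C are also given. The 2 ssRNase groups had 3 libraries each. In the footprint group the lysate was digested with RNase ONE while proteins were still bound. In the digestion-control group the proteins were first removed with 1% SDS and proteinase K, and the RNA was then digested with the same enzyme. The 2 dsRNase groups were made alike with RNase V1. The labels name no separate cultures behind the replicates, so spreads and p-values measure the variation between these libraries, which may be technical. Only 1 cell line was studied, and library preparation included treatment with a duplex-specific nuclease, a step that reduces abundant sequences.

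In this assay an RNA-binding protein fixed to its RNA shields the bases it covers from the nuclease, and a stretch that survives with protein but not without it is called protein-protected. RNase ONE cuts unpaired bases, so paired stretches also survive, and the digestion control is there to subtract them. RNA-binding proteins package RNA from transcription onwards: heterogeneous nuclear ribonucleoproteins coat introns of nascent transcripts, and long noncoding RNAs such as those of paraspeckles and nuclear speckles act as scaffolds for many proteins at once. The lists hold positions and a score per site but no read counts, so the depth behind a site is unknown. Positions are hg19, and no annotation of that build was used, so sites were not divided among exons, introns and untranslated regions. Where a transcript is named below, its place is given as general knowledge of hg19, and only its chromosome and strand were checked, in GENCODE release 29, which gave the same for 11 of 11 names.

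The first question was what a site looks like. The ssRNase lists covered 10193603, 2915002 and 8102044 bases in replicates 1, 2 and 3. Replicate 2 was much the shortest list. The commonest site length was 40, 43 and 41 nt, and 10% of sites were no longer than 31, 33 and 30 nt. In the upper tail, 10% of sites reached 74, 78 and 71 nt or more. Sites of 20 nt to under 60 nt made up 78.7%, 75.9% and 80.3% of the lists, and sites of 100 nt or longer 3.52%, 4.22% and 3.17%. The 3 lists were thus alike in shape although they differed in number. All 3 showed a step just above 44 nt, as did dsRNase replicates 2 and 3. At 44 nt lay 3.35%, 3.76% and 3.19% of sites and at 45 nt 2.68%, 2.92% and 2.57%. With dsRNase the shares were 1.83%, 2.13% and 1.89% at 44 nt and 1.48%, 1.45% and 1.41% at 45 nt. In dsRNase replicate 1 the fall was gradual, with 2.10% at 43 nt and 1.23% at 46 nt.

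The dsRNase lists peaked at shorter lengths, with commonest lengths of 32, 31 and 32 nt. They also held more very short sites: 11.6%, 14.5% and 7.24% were under 20 nt, against 2.23%, 2.05% and 2.39% with ssRNase. The median length was higher with ssRNase by 9.67 nt, and the lists did not overlap (two-sided exact permutation p = 0.1, the smallest possible with 3 against 3 lists, adjusted p = 0.133 over 8 measures). With only the 21561 best-scoring sites of each list, a limit set after seeing the data, the medians were 56 ± 4 and 34 ± 1 nt (SD, n = 3 each), a difference of 22 nt. This limit selected unequally by score: it kept every site of dsRNase replicate 3 but 21561 of 209922 in ssRNase replicate 1. Better-scoring ssRNase sites were longer, with a mean median of 48 nt in the better-scoring 50% against 43 nt in full lists. The part of this selection in the 22 nt was not tested.

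**Figure D1:**
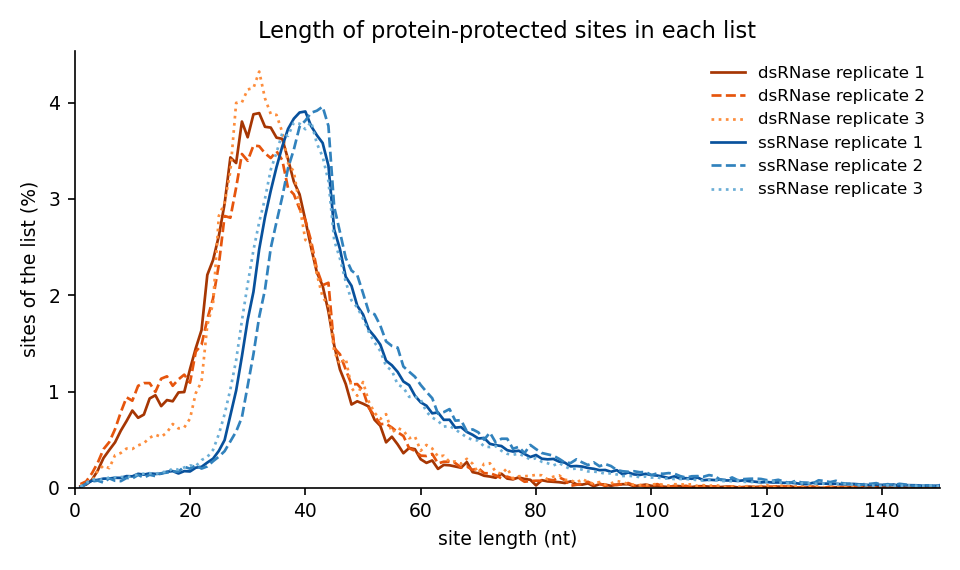
The share of sites (%, vertical axis) at each length (nt, horizontal axis) is drawn for the 3 ssRNase lists in blue and the 3 dsRNase lists in orange, one line per list. The ssRNase lines peak at 40, 43 and 41 nt, to the right of the dsRNase lines at 32, 31 and 32 nt.

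The second question was where the sites lie. Chromosome 1 held most sites, with 9.76%, 9.62% and 9.73% of the 3 lists. Chromosomes 5, 19, 17 and 11 followed, with mean shares of 6.43% ± 0.321, 6.41% ± 0.661, 6.05% ± 0.0696 and 5.88% ± 0.262 (SD, n = 3 each). The order among these 4 changed from list to list: chromosome 5 came before chromosome 19 in replicates 1 and 3, and after it in replicate 2. Chromosomes 18 and 21 held least among the numbered ones, with 1.03% ± 0.0526 and 1.04% ± 0.0248 (SD, n = 3 each), which do not differ beyond their spread. Sequences other than the numbered chromosomes and X took 0.386%, 0.720% and 0.412% of sites. No share was set against the length or gene content of its chromosome.

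Sites leaned to the minus strand. Its share was above 50% in all 3 lists on 23 of 23 chromosomes, X and the numbered ones. By the mean of the 3 lists the lean was strongest on chromosome 8, at 68.2%, 68.5% and 67.3%, and on chromosome 13, at 65.8%, 66.3% and 66.9%. By the same mean it was weakest on chromosome 4, at 50.5%, 53.8% and 51.8%, and on chromosome X, at 50.3%, 55.3% and 52.3%. Chromosomes 8 and 13 thus lay above chromosomes 4 and X in all 3 lists, while in replicate 2 chromosomes 7 and 19, at 54.1% and 54.3%, lay below X. Over whole lists the minus share was 57.8% ± 1.12 (SD, n = 3), below the 72.9% ± 8.35 of the dsRNase lists (SD, n = 3; two-sided exact permutation p = 0.1, adjusted p = 0.133).

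Scores also differed by strand. In replicate 1 the commonest score of the plus strand was 72.7, borne by 16841 sites, and that of the minus strand was 83.37, borne by 28410 sites. Neither score occurred at any site of the opposite strand. The same held in replicate 2, with 103.76 on the plus and 125.22 on the minus strand, and in replicate 3, with 62.8 and 64.4. The sites at the commonest score made up 18.5%, 14.1% and 21.5% of the plus strand and 23.9%, 17.7% and 26.3% of the minus strand. Without them, a choice made after the scores had been seen, the minus share was 54.9%, 57.7% and 56.6% of the remaining sites. The part of the scoring in the strand lean was otherwise not tested.

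Neighbouring sites mostly lay on the same strand. When each site was paired with the next on the chromosome whichever its strand, pairs over 100 and up to 1000 nt apart were on the same strand in 96.4%, 90.3% and 95.5% of cases. For pairs over 1000 and up to 10000 nt apart the shares were 95.8%, 92.1% and 95.0%, and for pairs over 100000 nt apart 52.9%, 52.7% and 54.1%. Strand was thus mostly shared up to 10000 nt and nearly evenly divided beyond 100000 nt. Pairs separated by 1 to 100 nt shared their strand less often than those over 100 and up to 1000 nt apart in each ssRNase list, at 91.4%, 76.0% and 88.1%. These shares leave out 7936, 3478 and 7778 pairs that overlapped or touched. Sites of a list never overlapped or touched on the same strand, so all of these pairs were necessarily on opposite strands.

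Other sites faced each other across the strands. An ssRNase site overlapped a site of its own list on the opposite strand in 7.16%, 11.7% and 8.68% of cases, against 0.510%, 0.690% and 0.979% with dsRNase (difference 8.46 percentage points, two-sided exact permutation p = 0.1, adjusted p = 0.133). With all 6 lists limited to their 21561 best-scoring sites, the means were 9.56% ± 1.12 and 0.716% ± 0.231 (SD, n = 3 each). Facing sites were long, with medians of 66, 67 and 66 nt against 42, 43 and 41 nt for the others. Facing needed an overlap of only 1 nt, which a longer site meets more easily. The part of this rule in the difference was not tested.

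The third question was how sites cluster. Within a list, the median gap between a site and the next on its strand was 752 nt in replicate 1, 3073 nt in replicate 2 and 999 nt in replicate 3. Gaps of at most 100 nt made up 19.99%, 12.5% and 17.2%, and gaps of at most 10000 nt 86.8%, 65.5% and 83.6%. A same-strand neighbour within 1000 nt was present for 72.6%, 51.5% and 68.1% of sites. The longest list had the closest sites and the shortest list the widest gaps.

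The comparison with dsRNase changed direction when the lists were cut to their best-scoring sites. The mean share of sites with a neighbour within 1000 nt was 64.0% ± 11.1 for the ssRNase lists against 46.7% ± 2.05 for the dsRNase lists (SD, n = 3 each), with p = 0.1 by the two-sided exact permutation test and 0.133 after adjustment. With 21561 best-scoring sites in each of the 6 lists, a set chosen after seeing the data, the order turned, to 37.8% ± 1.96 and 45.5% ± 2.21 (SD, n = 3 each), and the exact permutation p was again 0.1. The cut changed list length and score together, so their parts cannot be told apart.

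**Figure D2:**
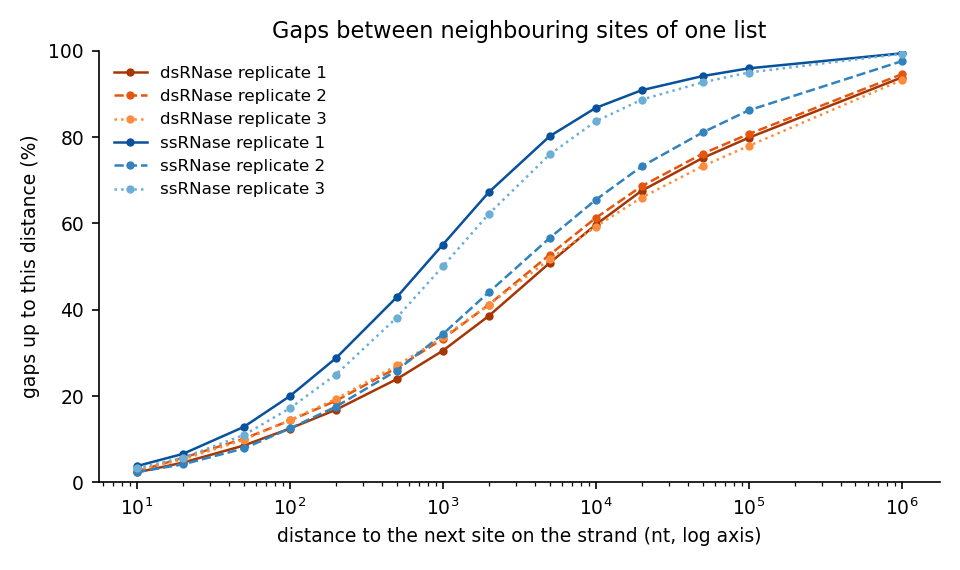
The share of gaps (%, vertical axis) up to a given distance (nt, logarithmic horizontal axis) is drawn for every list, ssRNase in blue and dsRNase in orange. At 1000 nt the ssRNase lists stand at 55.1%, 34.3% and 50.02% and the dsRNase lists at 30.5%, 33.3% and 33.6%, so that ssRNase replicate 2 lies close to the dsRNase lists.

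Sites joined across gaps of up to 1000 nt formed 94371, 37759 and 86037 chains in the 3 lists. Most chains were a single site, and these lone sites made up 27.4%, 48.5% and 31.9% of all sites. Chains of 10 or more sites numbered 2315, 169 and 1531, which is 2.45%, 0.448% and 1.78% of chains, yet they held 20.7%, 5.13% and 15.6% of the sites. With 57481 best-scoring sites in each list the mean share fell from 13.8% to 5.88%. Sites in large chains were longer and scored higher within their list. In replicate 1 the median length was 41 nt for lone sites and 51 nt in chains of 50 or more. Their median score stood at the 43.7 percentile of the list for lone sites and at the 66.7 percentile in those chains. Replicates 2 and 3 had the same order, with 43 and 53 nt in replicate 2 and 40 and 48 nt in replicate 3. Their score percentiles went from 44.7 to 79.4 and from 44.1 to 67.7.

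Over the 3 lists together there were 113173 chains, and 27084 of them had sites in every list. The chain with the largest number of sites was found on chromosome 4, plus strand, between 20265939 and 20384989. It spanned 119 kb and held 1206 sites in all, of which 555 were in replicate 1, 452 in replicate 3 and the remainder in replicate 2. This stretch lies within SLIT2, which encodes a secreted axon guidance ligand. Its sites covered 30.5%, 8.80% and 20.6% of the span.

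The next chain, on chromosome 8, minus strand, between 119014669 and 119123853, held 402, 135 and 320 sites over 109 kb. It lies within EXT1, which encodes a glycosyltransferase of heparan sulfate synthesis. Sites covered 19.5%, 6.78% and 15.1% of it. On chromosome X, plus strand, between 24766428 and 24806134, within POLA1, the gene of the catalytic subunit of DNA polymerase alpha, 232, 85 and 190 sites covered 40.8%, 11.8% and 26.0%. In all 3 stretches replicate 1 was the highest and replicate 2 the lowest, the order of the list lengths.

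Other long chains lay on minus strands. One on chromosome 11 from 2671173 to 2720475 held 173, 57 and 145 sites, in the stretch of KCNQ1OT1, an imprinted noncoding RNA that runs antisense to KCNQ1. One on chromosome 17 from 44212340 to 44252283 held 177, 50 and 134 sites, within KANSL1, the gene of a subunit of a histone acetyltransferase complex. One on chromosome 10 from 126762528 to 126802318 held 125, 61 and 108 sites, within CTBP2, the gene of a transcriptional corepressor. Sites covered 17.8%, 6.28% and 15.6% of the KCNQ1OT1 chain in replicates 1, 2 and 3. They covered 25.9%, 7.09% and 18.2% of the KANSL1 chain and 15.9%, 8.55% and 13.9% of the CTBP2 chain. Replicate 2 was the lowest in each. The remaining minus-strand chains among the 10 largest were on chromosome X between 73035663 and 73064275, with 202, 132 and 201 sites, and on chromosome 9 between 111534649 and 111559279, with 124, 66 and 122 sites.

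A more densely covered chain was found on chromosome 11, plus strand, between 65190290 and 65212993. It spanned 22704 nt, where NEAT1 lies, the noncoding RNA around which paraspeckles are built. The gene is 22767 nt long in GENCODE release 29. Here sites covered 85.4%, 48.0% and 67.7% of the span, against 8.80% and 30.5% at the lowest and the highest in the SLIT2 stretch. Replicate 1 had the fewest sites of the 3 lists here, 117 against 137 and 160, but the most covered bases, 19381 against 10899 and 15362. Its sites were therefore longer. Of the bases covered in any list, 48.2% were covered in all 3, compared with 16.1% in the SLIT2 chain and 14.5% in the EXT1 chain. It was not alone in this among the 10 chains. On the contig Un_gl000220, between 105025 and 119962, sites covered 55.1%, 50.1% and 59.1%, and 73.9% of the bases in any list were in all 3. The minus-strand chain of chromosome X had 60.8%, 27.2% and 42.0% covered and 33.4% in all 3. Where each list covers more of a span, more of its bases fall in all 3 lists by coverage alone. The part of coverage in these shares was not tested.

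**Figure D3:**
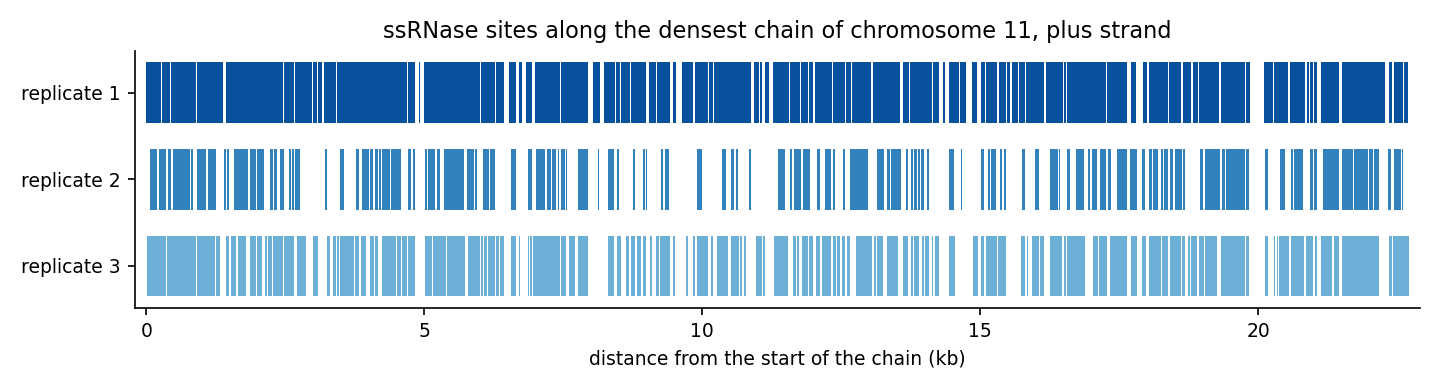
Each bar is an ssRNase site along the 22704 nt chain in the NEAT1 stretch, placed by its distance from the start of the chain (kb, horizontal axis), with one row per replicate list. Sites fill 85.4% of the span in replicate 1, 48.0% in replicate 2 and 67.7% in replicate 3, and reach from one end to the other in each list.

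The densest part of the transcriptome was found by summing site bases over stranded windows of 10000 bp. Each site was counted once, in the window that holds its centre. The windows with most bases were on chromosome 11, plus strand, from 65190001 to 65200000 and from 65200001 to 65210000, both in the NEAT1 stretch. They held 8590, 4761 and 6822 and 8471, 4540 and 6514 bases in the 3 lists. The dsRNase lists held 1036, 1821 and 2513 bases in the first of them.

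The contig Un_gl000220, on which a copy of the ribosomal RNA genes lies, held 3 of the 15 windows with most bases. Its window from 150001 to 160000 on the plus strand had 6241, 5816 and 6662 bases, a mean of 6240 ± 423 (SD, n = 3). In all 3 windows of this contig replicate 2 came close to the others although its list is the shortest. Many of these sites were listed in duplicate. Of the 210, 196 and 192 plus-strand sites on the contig, 182, 178 and 168 had a partner exactly 43972 nt away with the same length and score. The 2 copies are thus not separate evidence of protection.

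Of the 15 windows, 4 lay at protein-coding genes named here, at ranks 11, 12, 14 and 15. On chromosome 16, plus strand, between 2810001 and 2820000, within SRRM2, the gene of a scaffold protein of nuclear speckles, 4396, 1393 and 3678 bases were protected. On chromosome 5, minus strand, between 179040001 and 179050000, at HNRNPH1, the values were 4538, 1750 and 2531. On chromosome 7, minus strand, between 26230001 and 26240000, within HNRNPA2B1, they were 4408, 1262 and 2561. Both genes encode heterogeneous nuclear ribonucleoproteins that regulate splicing. The POLA1 window from 24780001 to 24790000 had 4198, 1264 and 2860 bases. Replicate 2 was the lowest in each of these 4 windows.

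Windows of chromosome X, minus strand, that start at 73040001, 73050001 and 73060001 ranked 4, 6 and 8. The first held 7286, 3568 and 5083 bases in replicates 1, 2 and 3, the second 6059, 2584 and 4089, and the third 5266, 2194 and 3461. The remaining windows, which were not named here either, were on chromosome 9 (minus strand from 111550001, rank 7), on chromosome 7 (plus strand from 72330001, rank 9) and on chromosome 4 (minus strand from 8620001, rank 13). The chromosome 9 window held 5121, 2300 and 4307 bases and the chromosome 4 window 3746, 1847 and 3099. Replicate 1 was the highest and replicate 2 the lowest in each of these windows. The plus-strand window of chromosome 7 held 65, 141 and 209 dsRNase bases, the lowest of the 15 windows in replicates 1 and 2, against 4078, 2567 and 3573 with ssRNase.

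The strongest windows were only a small part of the whole. The 15 windows together held 0.791%, 1.49% and 0.791% of site bases. The 1% of occupied windows with most bases held 10.3%, 9.21% and 9.68%, and 14.2%, 17.9% and 15.2% of occupied windows were needed to reach 50% of the bases. With dsRNase the leading 1% held more, 11.5% ± 0.942 against 9.72% ± 0.531 (SD, n = 3 each), and the lists did not overlap (two-sided exact permutation p = 0.1, adjusted p = 0.133). With 21561 best-scoring sites in each list the means were 11.6% ± 0.857 and 9.77% ± 1.37, and the lists then overlapped (two-sided exact permutation p = 0.3).

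The fourth question was how far protection recurs between replicates. The 3 lists joined into 280954 sites on the same strand, of which 280945 were identical to a site of the authors' merged ssRNase list. Of the joined sites, 60.4% came from 1 list, 26.2% from 2 and 13.4% from all 3. By bases the shares were 49.7%, 29.3% and 21.0%. Joined sites found in all 3 lists spanned a median of 67 nt, those of 2 lists 51 nt and those of 1 list 39 nt. A joined site spans what it joins, so part of this order follows from the joining.

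How often a site recurred depended on which list it came from. In replicate 2, the shortest list, only 10.1% of sites overlapped no other list and 67.4% overlapped both. In replicates 1 and 3, 47.2% and 37.8% overlapped no other and 18.4% and 22.6% overlapped both. Sites of replicate 2 alone were 2.06% of the joined sites, against 35.3% for replicate 1 alone and 23.1% for replicate 3 alone. With the lists limited to their 57481 best-scoring sites, taken as pairs after seeing the data, the mean share that recurred was 50.9%, 52.8% and 49.3% in the pairs 1 and 2, 1 and 3, and 2 and 3. The 3 pairs thus stood close together at equal length.

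Where a site recurred, its edges lay close to those of its partner. Among sites with exactly 1 partner in each direction (43975, 93586 and 39700 pairs in the 3 pairs of lists), the median distance between 5′ ends was 4 nt and that between 3′ ends 4 nt in each pair of lists. The 5′ ends were at most 5 nt apart in 56.2%, 56.4% and 56.4% of pairs and the 3′ ends in 58.97%, 57.7% and 58.4%. Identical 3′ ends were found in 18.5%, 18.3% and 18.0% and identical 5′ ends in 13.1%, 13.0% and 12.7%. In each pair of lists the 3′ end was thus identical more often than the 5′ end. The pairs share lists, so no test is given.

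The recurrence was local. Of the bases of one list, 22.2% to 77.6% lay inside sites of another, with a mean of 49.2% over the 6 ordered pairs. After the sites had been moved by 50 nt in either direction the mean was 17.8% (8.17% to 28.6% over the pairs), after 100 nt 11.5% (5.18% to 18.1%), after 1000 nt 4.84% (2.15% to 7.52%) and after 10000 nt 2.08% (0.873% to 3.12%). Sites without a partner lay farther from replicate 2, the shortest list, than from the other lists. Against replicate 2, 36.9% of such sites of replicate 1 and 37.0% of replicate 3 had a site within 1000 nt, with median distances of 2063 and 2091 nt. In the other 4 ordered pairs the share was 62.3% to 66.7%, with medians of 391 to 536 nt.

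**Figure D4:**
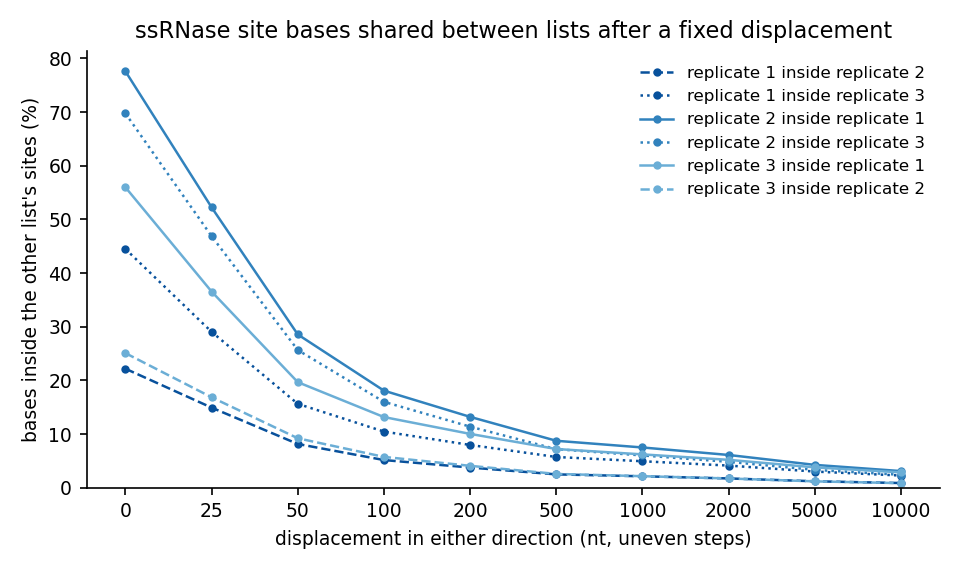
The share of the bases of one ssRNase list that lie inside sites of another (%, vertical axis) is drawn against a fixed displacement (nt, horizontal axis in uneven steps), one line for each ordered pair of lists. The mean over the pairs falls from 49.2% without displacement to 17.8% at 50 nt and 4.84% at 1000 nt.

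Long sites recurred more than short ones. In replicate 1, 36.6% of sites under 20 nt, 53.9% of sites of 40 nt to under 60 nt and 92.9% of sites of 100 nt to under 200 nt overlapped another list. In replicate 3 the values were 50.9%, 64.2% and 97.1%, and in replicate 2 they were 79.6%, 89.6% and 99.7%. A longer site has more bases at which an overlap of 1 nt can occur. By score, 27.8% of the lowest-scoring 10% and 93.7% of the highest-scoring 10% of replicate 1 recurred. In replicate 3 these were 33.9% and 97.1%, and in replicate 2 they were 85.8% and 99.5%. The shares between did not climb evenly. In replicate 2, the fourth of the 10 score classes, at 79.1%, was below the first. Sites in dense neighbourhoods also recurred more, from 44.5%, 86.2% and 51.8% of lone sites in replicates 1, 2 and 3 to 68.0%, 98.6% and 84.2% in chains of 50 or more sites. Sites in large chains were also longer and higher in score, and other lists can cover much of such a chain. The parts of length, score and coverage in this order were not tested.

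**Figure D5:**
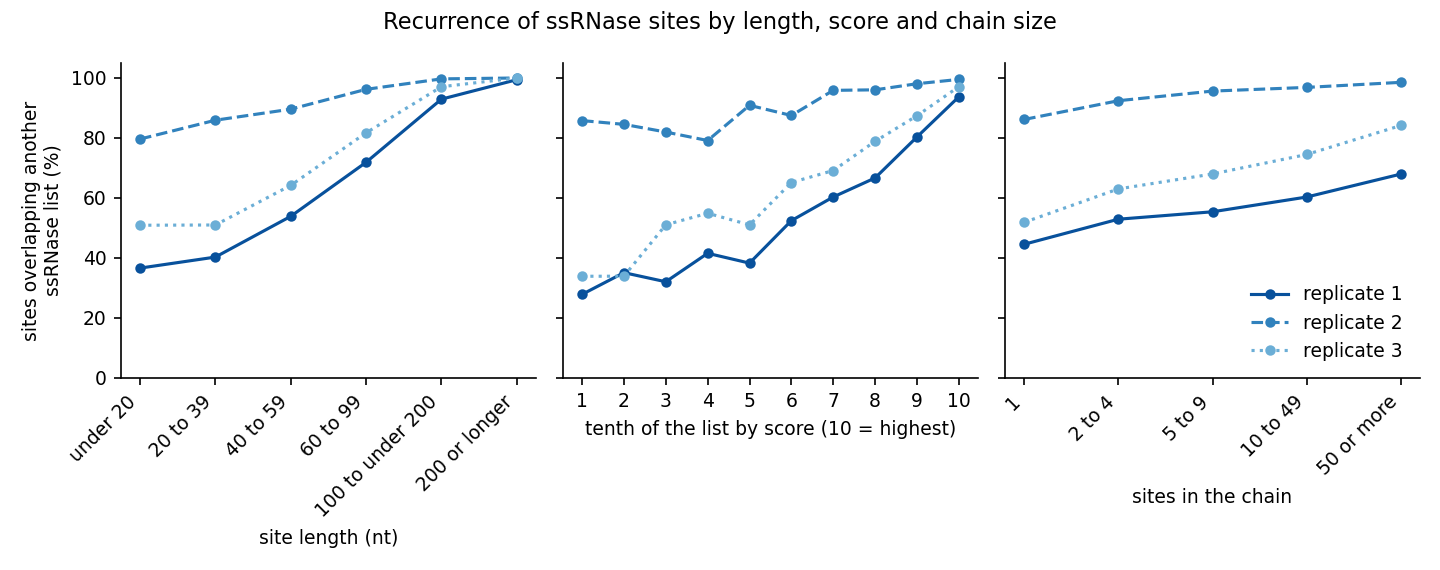
The share of sites that overlap another ssRNase list (%, vertical axis) is drawn for each replicate by site length (left), by score in 10 classes of equal size (middle) and by the number of sites in the chain (right). Replicate 2 lies highest in each bin, at 79.1% or more, except that replicate 3 equals it at 100% for sites of 200 nt or longer, and replicate 1 lies at 27.8% in the lowest and 93.7% in the highest score class.

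Among the 100 best-scoring sites of each list, 77, 75 and 74 overlapped one of the 100 best of both other lists, and 100 of 100 overlapped some site of another list in each. Of these sites 62, 60 and 61 lay on Un_gl000220, where most plus-strand sites are listed in duplicate. Among the 1000 best-scoring sites, 378, 382 and 372 overlapped one of the 1000 best of both other lists, and 96, 107 and 93 lay on this contig.

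Protection in all 3 lists, base by base, was found in 40208 uninterrupted stretches with a median of 40 nt. They added up to 1791878 bases, 12.6% of the bases in any list. Of these stretches, 1311 reached 100 nt and 17 reached 200 nt. The longest, 338 nt, was on chromosome 11, plus strand, between 65267675 and 65268012, where MALAT1 lies, an abundant noncoding RNA of nuclear speckles. It equalled the whole site of replicate 2 and lay inside sites of 982 nt in replicate 1 and 437 nt in replicate 3. The dsRNase lists covered 24, 43 and 36 of its bases. Another, of 214 nt from 65212004 to 65212217, stood near the end of the NEAT1 chain.

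The second longest stretch, 280 nt on chromosome 11, minus strand, between 769500 and 769779, was covered by dsRNase sites at 51 bases in replicate 1 and at none in replicates 2 and 3. On chromosome 15, minus strand, stretches of 260 nt (34826115 to 34826374) and 254 nt (34679900 to 34680153) had nearly the same edges in all 3 lists. In replicate 3 both had a score of 795.82, but the scores differed in replicate 1, at 754.95 and 702.04, and in replicate 2, at 532.75 and 319.11. The same number of their bases lay in dsRNase sites, 43, 84 and 30. Whether they are 2 places or 1 sequence listed in duplicate was not tested. A stretch of 216 nt on the minus strand of chromosome 19 (57981491 to 57981706) had no base in any dsRNase list.

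Recurrence also went along with the second nuclease, whose lists took no part in choosing the sites. Of the joined sites found in 1 ssRNase list, 7.31% overlapped a dsRNase site. The share was 17.7% for those of 2 lists and 29.4% for those of all 3, 11061 of 37575 sites. Sites of replicates 1, 2 or 3 alone did so in 8.15%, 7.81% and 5.99% of cases. Joined sites of more lists are longer, at 39, 51 and 67 nt, and the part of length in this order was not tested.

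In windows of 10000 bp, which are wider than any site and so more easily shared, the lists met more often. Of 61975 windows with a site, 40.7% had sites in all 3 lists. They held 75.2%, 96.6% and 76.2% of the site bases of replicates 1, 2 and 3. Site bases per window had a Spearman rho of 0.615 (replicates 1 and 2, 26421 windows), 0.778 (replicates 1 and 3, 43973 windows) and 0.651 (replicates 2 and 3, 25826 windows), taken over windows occupied in both lists. These are descriptions across windows, which share the libraries and the transcript levels behind them. Of the 100 windows with most bases in each list, 54 were the same in all 3.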

How the data were processed

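The authors trimmed adapters with cutadapt 0.9.5, and TopHat2 2.0.9 and build hg19 are named, per the submitters' processing notes. The names of the deposited lists give CSAR as the site caller and 5% as its false discovery rate. The sources used here do not say how the authors normalised reads or treated those with several matches. The score per site is the value deposited by the authors, of unknown scale, and served here only for ranks inside each list. The merged ssRNase list was made by the authors. Positions were read as 1-based and inclusive.

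Computed here: site lengths, gaps, chains (gaps up to 1000 nt), windows of 10000 bp and overlaps of at least 1 nt on the same strand. Tied scores were put in a fixed random order. ssRNase and dsRNase lists were compared on 8 measures by a two-sided exact permutation test over lists, with Benjamini-Hochberg adjustment. No such test can pass 0.05, since 0.1 is the smallest p. Named regions are the 15 windows with the largest mean site bases, the 10 longest stretches in all 3 lists and the 10 chains with most sites; not every one is described. The members, rules and lists were chosen with earlier results of these data known. Tools were scipy 1.17.1, pandas 2.3.3, matplotlib 3.10.9, numpy 2.4.6 and Python 3.11.15. The interval code was tested on simulated data against base-by-base counts, and 0 of 16060 checks differed.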

Additional observations from a re-analysis of the deposited data

How the results depend on the processing

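The lists give no read depth, so sites missed for want of reads cannot be told from unprotected ones. With the better-scoring 50% of each list the median length was 48.0 nt, the minus share 59.7% and the share of union bases in all lists 12.55%. At equal list length (57481 sites) these were 48.7 nt for the length and 18.1% for the union bases, and 51.6% of sites had a neighbour within 1000 nt. The share in chains of 10 or more, 13.8% with full lists, was 7.75% with the better-scoring 50% and 5.88% at equal list length. On the numbered chromosomes and X alone, 12.55% of union bases lay in all lists. Without replicate 1, 2 or 3 this share was 20.8% to 33.0%, since 2 lists then sufficed. With gaps up to 100 nt or 10000 nt, 28.4% or 90.6% of sites had a neighbour and 0.396% or 55.1% were in chains of 10 or more, by construction of the distance. The leading 1% held 5.72% in windows of 1000 bp, 11.6% in windows of 100000 bp and 8.25% by number of sites. Without the commonest score of each strand the minus share was 56.4% on average. For changes stated without a reason, the cause was not tested.

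At equal length of all 6 lists, the differences from dsRNase turned to -7.77 percentage points for neighbours within 1000 nt (17.3 with full lists) and -4.89 for chains of 10 or more (5.33). The difference in recurring sites was 16.9 with full lists (exact permutation p = 0.2) and 11.5 at equal length of all 6 lists (exact permutation p = 0.1). With 1 list left out it ranged from -1.52 without ssRNase replicate 1 to 32.3 without dsRNase replicate 2. It was 2.82 and 1.204 without ssRNase replicates 2 and 3. The nuclease that lost a list then had 1 other list to recur in, and the other nuclease still had 2. These left-out values therefore cannot show whether the direction is stable. For chains of 10 or more the difference was 1.87 without ssRNase replicate 1 and 9.67 without ssRNase replicate 2. Apart from recurring sites, the differences kept their direction without each list in turn. Deviations of same-numbered lists of the nucleases over 31432 windows correlated at 0.0174, -0.0631 and -0.0336. For lists of different number the values lay between -0.100 and 0.0926. Such correlations cannot show whether same-numbered libraries shared a culture or batch. With the replicate block (exact sign-flip permutation, smallest p 0.25) the differences were the same and p was 0.25 for 7 of 8 measures and 0.5 for chains. Equal length of 6 lists, leaving out single lists of either nuclease and dropping the commonest score were chosen after seeing the data. With recurrence asked at 50% of the site, or of both sites, the mean share was 65.3% or 61.2%, against 68.3% at 1 nt. A stricter rule on the same lists can only lower this share.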
